A study of Mus musculus with 2 samples.

Results

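The genes described here are those of the interleukin (IL)-1 and IL-18 ligands, their antagonists and their receptors, namely Il1a, Il1b, Il1rn, Il1r1, Il1r2, Il1rap, Il18, Il18bp and Il18rap. Every non-control probe annotated to a RefSeq transcript of one of these 9 genes was used, which gave 10 probes, 2 for Il1rap and 1 for each other gene, out of 39413 probes and 20653 named genes. Their RNA was measured in monocytic myeloid-derived suppressor cells (M-MDSCs) that had been isolated with magnetic beads from tumours of female BABL/c mice, as the labels spell the strain. Each mouse in both groups had received 1000000 cells of 4T1, a mammary carcinoma line, under the skin after a day without food. For 16 days the NSD group then ate chow containing 0.4% NaCl and drank tap water, and the HSD group ate chow containing 4% NaCl and drank 1% NaCl. The cells of a diet group were mixed, so each diet is 1 pool on 1 array, no spread between mice was measured, and no test or p-value is given for any difference.

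IL-1α and IL-1β bind the same receptor, IL-1R1, which then recruits the accessory protein IL-1RAP and signals through the adaptor MyD88 to NF-κB. IL-18 acts in the same way through its own receptor chain, encoded by Il18r1, and the accessory chain encoded by Il18rap. Both pathways carry natural brakes: the receptor antagonist encoded by Il1rn and the decoy receptor IL-1R2 limit IL-1, and the binding protein encoded by Il18bp holds IL-18 in solution. In myeloid cells IL-1β and IL-18 are made as inactive precursors that caspase-1 cleaves in the inflammasome.

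With HSD, the transcripts of the ligands did not share a direction, and those of the signalling receptor chains were higher. Il18 was 5.68-fold lower and Il1a 1.88-fold lower, while Il1b (1.26-fold higher), Il1rn and Il18bp were within 1.5-fold. Il1r1, not well above background with NSD, was at least 13-fold higher. Il1rap and Il18rap were also higher, whereas the decoy receptor Il1r2 was 1.69-fold lower. In all, 4 of the 10 probes were higher by at least 1.5-fold and 3 were lower by as much. Among the 29628 probes that stood well above background on one array or both, 10.2% were higher and 8.91% lower by this measure. With another background correction (normexp), Il1a and both Il1rap probes, which were dim, were within 1.5-fold. The bound of Il1r1 then fell from 3.70 to 0.92 on the log2 scale. A difference is counted here by its size alone, and a direction below means a measured difference between these 2 arrays.

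The sequences around the start sites of the genes with the largest differences, Il18 and Il1r1, and of the neighbouring genes Il1a and Il1b, are shown because the results turn on these genes. They are RefSeq sequences of build GRCm38.p6, from 250 bases before to 50 bases after an annotated start, written 5′ to 3′ on the strand of the gene. Capitals mark matches to any of 8 motifs that were searched.
Il18, chr9:50554450-50554749, plus strand: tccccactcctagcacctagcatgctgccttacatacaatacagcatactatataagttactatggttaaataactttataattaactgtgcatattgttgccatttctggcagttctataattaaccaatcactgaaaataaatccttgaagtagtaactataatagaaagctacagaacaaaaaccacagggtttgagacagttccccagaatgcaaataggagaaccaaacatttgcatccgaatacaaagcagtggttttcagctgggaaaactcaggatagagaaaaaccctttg
Il1r1, upstream start site, chr1:40224830-40225129, plus strand: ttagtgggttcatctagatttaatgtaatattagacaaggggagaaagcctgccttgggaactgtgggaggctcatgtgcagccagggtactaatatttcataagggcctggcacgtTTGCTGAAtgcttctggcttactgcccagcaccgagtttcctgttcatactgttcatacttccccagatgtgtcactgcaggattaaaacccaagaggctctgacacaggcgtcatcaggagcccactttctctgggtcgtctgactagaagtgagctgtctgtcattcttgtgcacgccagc
Il1r1, downstream start site, chr1:40266336-40266635, plus strand: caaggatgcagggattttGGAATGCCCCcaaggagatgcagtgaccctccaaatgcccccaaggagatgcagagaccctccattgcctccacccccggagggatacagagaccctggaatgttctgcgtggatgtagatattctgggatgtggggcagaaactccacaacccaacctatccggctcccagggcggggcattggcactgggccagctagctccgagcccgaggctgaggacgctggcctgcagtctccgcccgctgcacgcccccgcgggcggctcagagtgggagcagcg
Il1a, chr2:129309923-129310222, minus strand: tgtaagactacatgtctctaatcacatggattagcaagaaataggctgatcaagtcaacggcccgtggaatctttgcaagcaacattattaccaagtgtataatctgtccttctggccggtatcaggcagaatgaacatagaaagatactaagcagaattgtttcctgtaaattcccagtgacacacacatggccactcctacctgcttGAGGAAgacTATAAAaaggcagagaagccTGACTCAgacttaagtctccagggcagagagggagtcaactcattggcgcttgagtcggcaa
Il1b, chr2:129371090-129371389, minus strand: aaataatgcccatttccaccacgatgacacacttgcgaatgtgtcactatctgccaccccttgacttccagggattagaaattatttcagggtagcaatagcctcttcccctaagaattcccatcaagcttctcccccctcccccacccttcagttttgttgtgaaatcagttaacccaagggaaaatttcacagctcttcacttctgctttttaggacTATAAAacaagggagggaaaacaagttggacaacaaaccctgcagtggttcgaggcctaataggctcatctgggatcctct

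The motifs were the TATA box (TATAAA, on the gene's strand), and on both strands AP-1 (TGANTCA), PU.1 (GAGGAA), C/EBP (TTGCNNAA), the interferon-γ activated site (TTCNNNGAA), the interferon-stimulated element (GAAANNGAA), the NF-κB consensus and the tonicity element bound by NFAT5. Il1a and Il1b, which lie next to each other on chromosome 2, both held a TATA box, which began 32 and 31 bases before the start. A TATA box was found in 8.32% of 32851 promoters of this length. Il1a also held a PU.1 and an AP-1 match, letters found in 28.3% and 7.81% of all promoters. The window at the upstream start of Il1r1 held a C/EBP match (10.8% of all promoters), and that at its downstream start held an NF-κB match (4.51%). The window of Il18 held none of the 8 motifs. Over all 12 windows of the 9 genes none held the tonicity element, which 4.96% of all promoters did. The interferon-γ activated site was found at Il1r2 only (8.30% of all promoters) and the interferon-stimulated element at Il1rap only (8.56%). Such matches are strings of letters and were not tested for binding.

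A few properties of the arrays bear on these values. Signals are intensities in arbitrary units after background subtraction. On the log2 scale each array was centred on its own 75th percentile, which was 252 units for NSD and 233 units for HSD, and log2 fold changes were taken as HSD minus NSD. The lowest signal that the scanner software called well above background was 4.61 units for NSD and 4.39 units for HSD. Where a signal was not well above background, the fold change is a lower bound against that limit or the probe's own signal, whichever was higher. The 289 probes that were printed in several spots had a median SD between spots of 0.082 on the log2 scale. No member spot was saturated or marked as an outlier. Errors beside single signals are those that the scanner software attached to the spot, and they cover the measurement of the array, not mice. Differences were taken between arrays for the same probe, since probes bind their targets unequally. The choice or naming of a brightest probe does compare probes. The summed levels of marker lists add different probes, so the brightest probes weigh most in them.

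**Figure D1:**
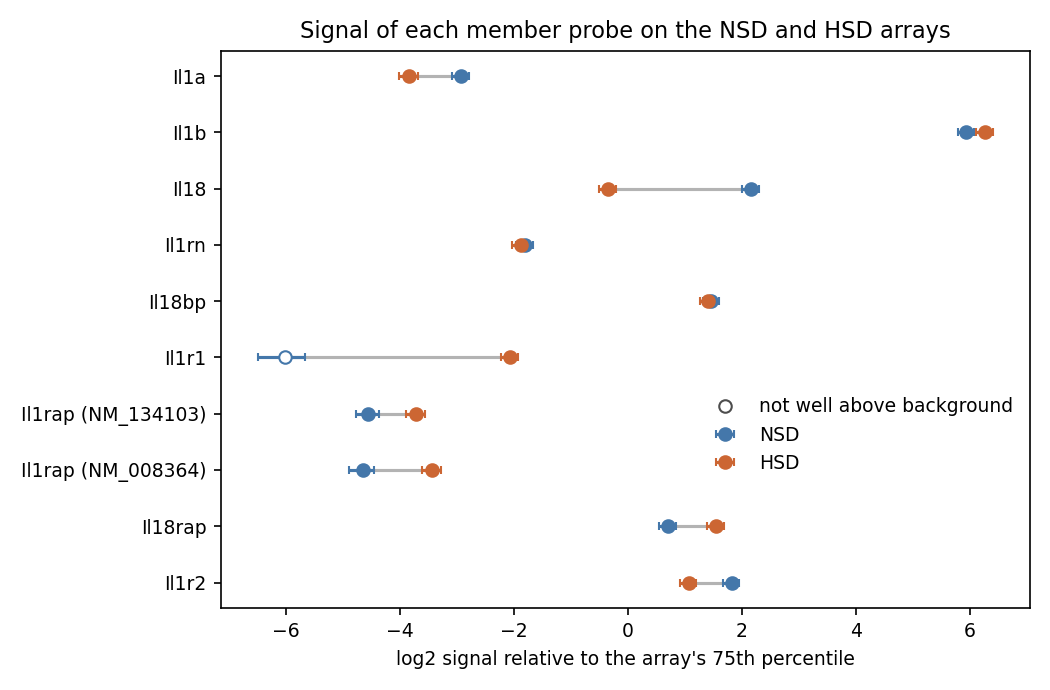
Signal of the 10 member probes with NSD (blue) and with HSD (orange), as log2 relative to the 75th percentile of the array. Bars are the error given by the scanner software and the open circle marks a signal not well above background. The widest gaps are those of Il1r1, which is brighter with HSD, and Il18, which is dimmer with HSD.

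Among the ligands, Il18, which encodes a cytokine that drives interferon-γ production by T and NK cells, had the largest decrease of the members. Its probe read 1128 ± 113 units with NSD and 183 ± 18.4 units with HSD, a log2 fold change of -2.51. Of the 27236 probes that both arrays detected above background, 82 (0.301%) had a larger decrease. Spots of the same probe at such signals had an SD of 0.056 (NSD) and 0.108 (HSD) on the log2 scale, far below the difference. The value lay between -2.63 and -2.16 under 8 other ways of processing.

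Il1a encodes IL-1α, a cytokine that is active without cleavage and that dying cells release. Its signal was low on both arrays, at 33.2 ± 3.45 units with NSD and 16.3 ± 1.87 units with HSD, a log2 fold change of -0.91. Spots at such signals had SDs of 0.161 and 0.212, which gives a spot error of 0.266 for the difference. With the normexp correction, which adds an offset of 50 units to every signal, the log2 fold change of Il1a was -0.18 and no longer past 1.5-fold.

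Il1b encodes IL-1β, the main IL-1 secreted by myeloid cells, and its probe was printed in 10 spots per array. On the NSD array the spots ranged from 14843 to 16624 units with a median of 15306, and on the HSD array from 15987 to 19361 units with a median of 18019. Before scaling the ranges overlapped at their edges, and relative to the 75th percentile of each array they did not, with 58.9 to 65.9 for NSD and 68.6 to 83.1 for HSD. The ranges were not compared under the other settings, some of which gave a smaller difference. The mean error that the scanner software gave a spot was 1547 units with NSD and 1801 units with HSD. The log2 fold change was 0.33, a 1.26-fold difference, with a spot error of 0.038. It stayed between 0.20 and 0.34 under the other 8 settings and did not reach 1.5-fold in any of them. Spots of an array share 1 RNA pool, so this precision says nothing about mice. Thus the neighbours Il1a and Il1b differed in direction, and Il1b was within 1.5-fold.

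Of the antagonists, Il1rn, which encodes the IL-1 receptor antagonist, read 72.4 ± 7.30 units with NSD and 63.4 ± 6.42 units with HSD. After scaling this was a log2 fold change of -0.076, less than the spot error of 0.134. Il18bp, which encodes the soluble protein that captures IL-18, read 697 ± 69.7 units and 622 ± 62.2 units, a log2 fold change of -0.050 with a spot error of 0.106. Neither difference exceeded the error between spots. The log2 fold changes over the other settings were between -0.12 and -0.061 for Il1rn and between -0.12 and -0.035 for Il18bp.

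Among the receptors, Il1r1 encodes the signalling receptor of IL-1α and IL-1β. Its probe read 3.89 ± 1.09 units on the NSD array, which was not well above background, and 55.6 ± 5.65 units on the HSD array. The difference is therefore a lower bound, at least 13-fold or 3.70 on the log2 scale, and the measured signals differed by 3.95. Of the 1298 probes detected in this way on the HSD array alone, 14 (1.08%) had a larger bound. The bound shrank to 0.92 with the normexp correction, still past 1.5-fold, and was between 3.48 and 3.71 under the other settings that gave one. The probe was printed in 1 spot per array and no second probe of Il1r1 was matched.

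Il1rap encodes the accessory chain that IL-1R1 needs to signal, and it was measured by 2 probes of different transcripts, which were both dim and both higher with HSD. The probe for NM_008364 read 10.0 ± 1.55 units with NSD and 21.5 ± 2.47 units with HSD, a log2 fold change of 1.21. The probe for NM_134103 read 10.7 ± 1.51 and 17.8 ± 2.05 units, a log2 fold change of 0.84. The spot errors of these differences were 0.351 and 0.354. With the normexp correction the values were 0.26 and 0.20, under 1.5-fold.

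Il18rap encodes the accessory chain of the IL-18 receptor. Its signal was 412 ± 41.2 units with NSD and 680.5 ± 68.1 units with HSD, a log2 fold change of 0.84 with a spot error of 0.106. It stayed past 1.5-fold under all 8 other settings, between 0.72 and 0.85. Of the 4 higher probes, that of Il18rap had the narrowest range over the settings.

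Il1r2 encodes a decoy receptor that binds IL-1 and does not signal. It moved the other way, from 892 ± 89.2 units with NSD to 488 ± 48.9 units with HSD, a log2 fold change of -0.75 with a spot error of 0.106. The 8 other settings gave -0.84 to -0.64, all past 1.5-fold. The members just past the 1.5-fold threshold were Il1r2, at 1.69-fold, and Il18rap and the dimmer Il1rap difference, at 1.79-fold, and the nearest below it was Il1b at 1.26-fold.

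**Figure D2:**
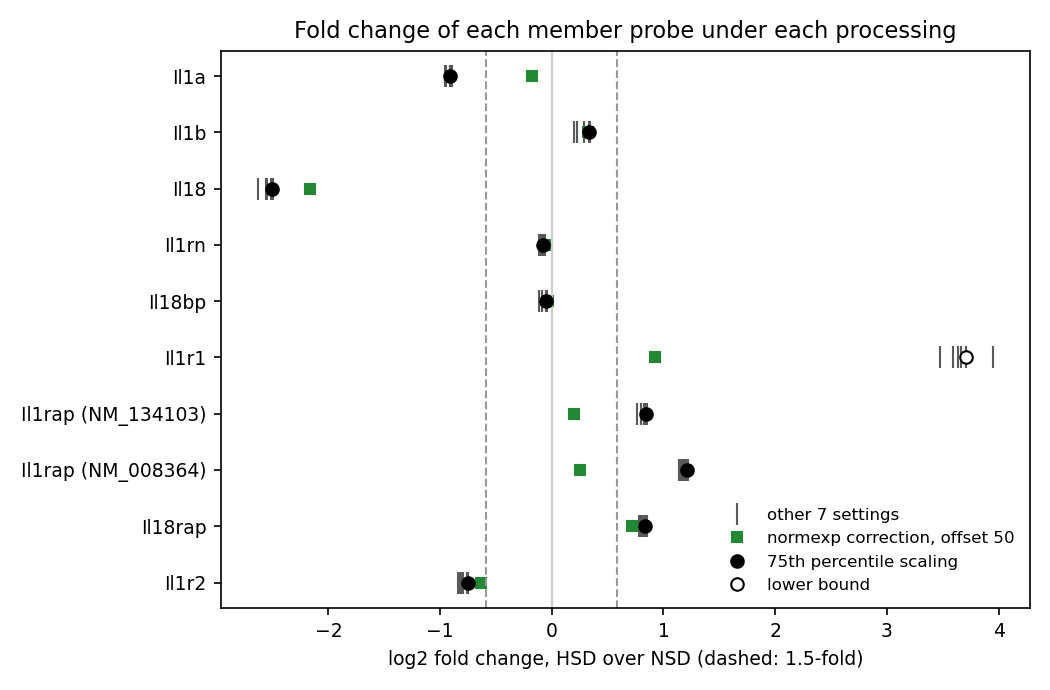
Log2 fold change of each member probe (HSD over NSD) with 75th percentile scaling (circles, open for a lower bound), with the normexp correction (green squares) and under 7 other settings (ticks). The dashed lines are 1.5-fold. Il18, Il1r1, Il18rap and Il1r2 lie outside the lines under every setting, and Il1a and both Il1rap probes move inside them with the normexp correction only.

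The 10 probes did not move together. For the 9 that both arrays detected, the median log2 fold change was -0.050, beside 0.058 over all 27236 such probes, and with Il1r1 at its bound the median over 10 probes was 0.14. The differences were larger in size than was usual on the arrays, with a median absolute log2 fold change of 0.84 for these 9 probes and 0.26 for all. Counted with the bound, 5 probes had positive and 5 negative values.

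**Figure D3:**
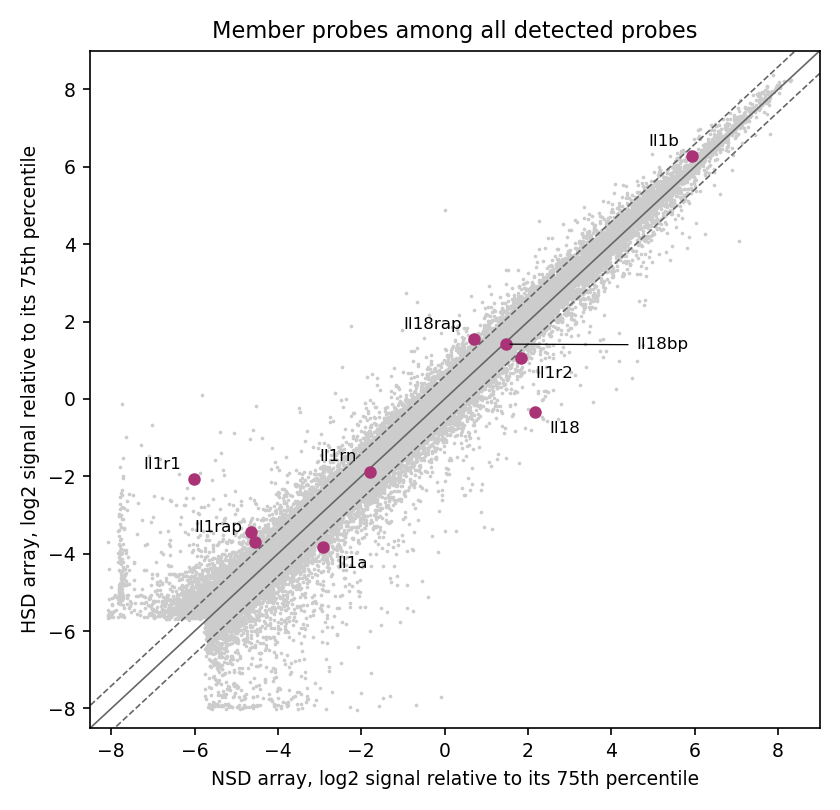
Each grey point is a probe that at least 1 array detected above background, placed by its NSD and HSD log2 signals, each relative to the 75th percentile. Purple points are the 10 member probes, the solid line is equality and the dashed lines are 1.5-fold. Il1r1 and Il1rap lie above the lines at low signals, Il18 and Il1r2 below them at middle signals, and Il1b near equality among the brightest probes.

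The receptor genes lie side by side on chromosome 1 in the order Il1r2, Il1r1, Il1rl2, Il1rl1, Il18r1 and Il18rap, and this block held differences in both directions. Il18r1, which encodes the chain that binds IL-18, was measured by 2 probes. The brighter read 124 and 181 units (log2 fold change 0.66) and the dimmer 7.72 and 12.5 units (0.81), so both chains of the IL-18 receptor were higher with HSD. With the normexp correction the brighter probe of Il18r1 had a log2 fold change of 0.52, under 1.5-fold. Il1rl1, which encodes the IL-33 receptor, read 81.4 and 55.4 units on its brightest probe (log2 fold change -0.44), and its other 2 probes were not well above background on either array. Il1rl2, the receptor of the IL-36 cytokines, was too dim to count on both arrays. Sigirr, which encodes an inhibitory receptor of the family, read 86.4 and 80.1 units, a log2 fold change of 0.0044. Il33, Il1f10, Il1rapl1 and Il1rapl2 were not well above background on either array, and no named probe was matched for Il36a, Il36b, Il36g and Il36rn.

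Downstream of the receptors, the adaptor gene Myd88 was higher and the other signalling genes mostly were not. By the brightest probe of each gene, 2 of 19 signalling genes were higher by at least 1.5-fold and 0 were lower by as much. Over the 16332 named genes with such a value, 9.85% were higher and 10.3% lower. The list median was 0.13, beside 0.045 over all genes. Myd88, the adaptor of both receptors, was printed in 9 spots and read 2557 and 4937 units, a log2 fold change of 1.06. Irak3, which encodes an inhibitory kinase-like protein that restrains this signal, read 2074 and 4806 units, a log2 fold change of 1.33. The kinase genes Irak1, Irak2 and Irak4 had log2 fold changes of -0.0075, 0.11 and -0.25 on their brightest probes. Traf6, which encodes the ubiquitin ligase below them, had 0.42. The share of genes counted as higher in this list was close to that of all genes.

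Of 14 genes that process and release the cytokines, 1 was higher and 2 were lower by at least 1.5-fold, with a median of -0.23. Over all named genes with a usable value 9.85% were higher and 10.3% lower, so this list did not stand apart by its counts. Casp1, which encodes the enzyme that cleaves both precursors, had a log2 fold change of -0.26, and Nlrp3, an inflammasome sensor, had -0.040. Nlrc4, another sensor, was higher, with 103 and 350 units (log2 fold change 1.88). P2rx7, the ATP-gated channel that triggers release of IL-1β, read 149 and 49.6 units on its brightest probe (log2 fold change -1.47), but its other 2 probes had -0.53 and -0.26. Casp8, which encodes another caspase, lay at the threshold with -0.59 and under it (log2 fold change -0.45) with the normexp correction.

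Of 15 genes known to be induced by IL-1 in many cells, 13 had a usable value, all above 0. Of these, 8 were higher by at least 1.5-fold and none was lower by as much. Over all named genes with a usable value, 9.85% were higher and 10.3% lower. The list median was 0.87, and it was 0.49, under 1.5-fold, after the normexp correction. Csf2 and Ccl20 were not well above background on either array. The chemokine genes Cxcl1 and Cxcl2 had log2 fold changes of 1.88 and 2.02, the acute phase gene Saa3 had 1.21, and Nfkbia, an NF-κB inhibitor that NF-κB itself induces, had 0.87. Tnf had 1.03 and Ptgs2, which encodes the prostaglandin synthase COX-2, had 0.95, while Zc3h12a lay at the threshold with 0.59. Csf3 read 1.30 units with NSD, not well above background, and 13.7 units with HSD, at least 3.21-fold higher. Many other stimuli induce these genes, and their relation to IL-1 was not tested. Several were known from earlier results of these arrays when the list was written, so the counts are not independent of these data. Of the 12 genes higher in these lists, 8 stayed past 1.5-fold with the normexp correction, and Il18r1, Ptgs2, Zc3h12a and Csf3 did not.

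**Figure D4:**
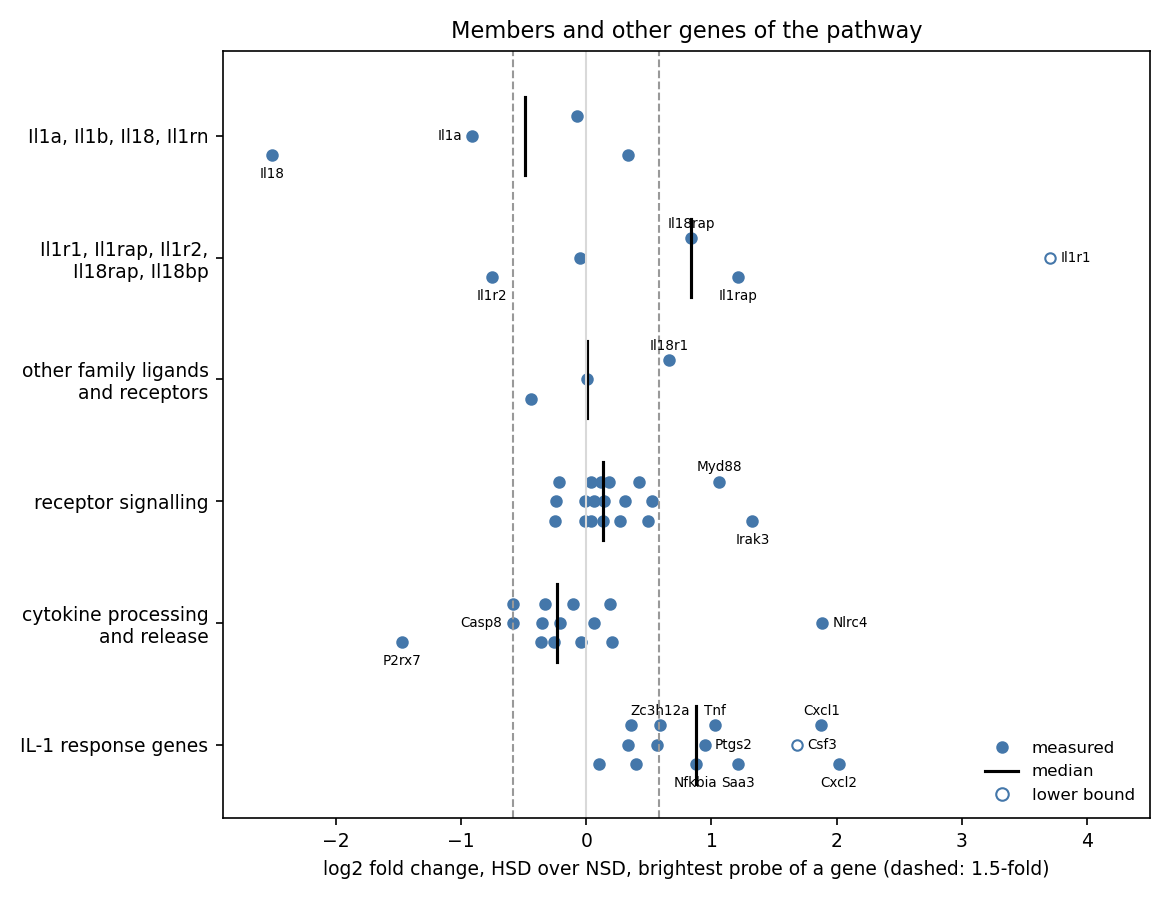
Log2 fold change (HSD over NSD) of the 9 members, in the upper 2 rows, and of 4 lists of other genes of the pathway, 1 point per gene by its brightest probe, with lower bounds open and the median of each list as a bar. Names mark genes past 1.5-fold (dashed lines). The IL-1 response genes lie to the right of 0, but several were known from earlier results of these arrays when listed. The signalling and processing genes lie mostly between the lines.

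Cells other than M-MDSCs could add to these signals, and in pooled RNA fewer cells of a type cannot be told apart from less RNA per cell. Of the listed monocyte markers, the brightest probes of Itgam and Csf1r read 31564 and 31043 units and 11343 and 8112 units. All 9 monocyte markers with a probe were well above background on both arrays. Itgam encodes CD11b, by which the authors also define granulocytic suppressor cells, so it does not mark monocytes alone. Of the 9, 3 were higher by at least 1.5-fold, Cd14, Chil3 and Cx3cr1 (119 and 188 units). Ccr2 (259 and 139 units) was the 1 that was lower. The shares over all named genes with a usable value were 9.85% higher and 10.3% lower. Neutrophil markers were also present: all 12 with a probe were well above background on both arrays at 1412 to 61817 units, including S100a8, S100a9 and Ltf, and 11 of 12 were within 1.5-fold. Their summed level relative to the 75th percentile was 1526 with NSD and 1604 with HSD. Mature neutrophils are known to carry Il1r2 and Il1b, and the part of such cells in the signals of these genes was not tested.

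Macrophage markers moved with Il18. Of 9 markers with a probe, 7 were lower with HSD by at least 1.5-fold and 0 higher, the median was -2.21, and their summed level was 70.8 with NSD and 40.2 with HSD. With the normexp correction the median was -0.74. For all named genes with a usable value the shares past 1.5-fold were 9.85% higher and 10.3% lower. Among the 7, Mrc1 read 134 and 5.49 units, Fcgr1 305 and 21.9 units and Mertk 95.9 and 15.4 units, and C1qa was at least 2.56-fold lower. Apoe, the brightest of the 7, read 7119 and 4337 units and was 1.52-fold lower, just past the threshold. The 2 markers not among the 7 were Adgre1, at 6723 and 4252 units (log2 fold change -0.55, under 1.5-fold), and C1qb, at 50.4 and 58.4 units (0.33). Macrophages are a known source of Il18, and the part of these cells in its lower signal was not tested. For Il18rap and Il18r1, which T and NK cells also carry, the T and NK markers had 0 of 10 with a usable value higher by at least 1.5-fold and 1 lower, Cd3e. Their median was -0.27, and 0.0043 with the normexp correction. Their summed level was 1.19 times as high with HSD, most of it from Cd3d, at 1501 and 1871 units. Ncr1, which defines NK cells, was too dim to count on both arrays. Klrb1c read 2.65 units with NSD, not well above background, and 6.03 units with HSD. By brightest probe, Nkg7 (677 and 651 units), Gzma (31.1 and 22.3), Prf1 (48.9 and 36.8) and Gzmb (13.3 and 9.02) were well above background on both arrays. The part of T and NK cells in the signals of Il18rap and Il18r1 was not tested. For Il1r1, which stromal and epithelial cells also carry, the fibroblast markers had 1 of 5 with a usable value higher (Pdgfrb, 1.51-fold) and 2 lower, with a summed level of 0.672 and 0.632, and Pdgfra and Lum were not well above background. By the brightest probe of each gene, the endothelial markers had 0 of 5 with a usable value past 1.5-fold and a summed level of 1.98 and 2.21, and Tie1 was not well above background. The 2 probes of Kdr, however, disagreed: the brightest, in 1 spot, read 150.1 and 169 units (log2 fold change 0.28), and the other, in 10 spots, read 124 and 20.4 units (-2.49). The carcinoma markers had 3 of 7 higher, at 1.53-fold for Krt8, 1.70-fold for Krt18 and 1.63-fold for Epcam, all dim, while Krt14 read 24.3 and 23.5 units, with a summed level of 0.561 and 0.635. Their part in the signal of Il1r1 was not tested.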

How the data were processed

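RNA of pooled M-MDSCs was hybridised to single-colour (Cy3) Agilent mouse arrays, 1 array for NSD and 1 for HSD, scanned together. The authors deposited Feature Extraction 11.0.1.1 output. Its processed signal, an intensity with the background removed, had not been normalized between arrays. They also deposited log2 values normalized with GeneSpring, by a method not given in the sources used here. Control spots and outlier spots were left out, log2 processed signals were averaged per probe (a probe was well above background when at least 50% of its spots were), and the 75th percentile was subtracted. Differences of at least 1.5-fold were counted. RefSeq transcript identifiers, matched without versions to GRCm38.p6, named 27223 of 39413 probes (69.1%). The array design used another assembly, so array coordinates are not given.

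For lists, 1 probe stood for a gene, that of highest mean log2 signal. All 9 members and every probe of each are named, together with genes past 1.5-fold and chosen examples of 4 pathway lists, and, of 11 cell type lists, those of the first 3 markers that moved with a member. The marker genes in the text were not all chosen by this rule: several first markers are left out, and later ones (among them Csf1r, Fcgr1, Mertk, S100a9, Ltf and Epcam), as well as Il1rl1, were named after their values were seen. The members and lists were chosen with earlier results of these data known. Spot SDs come from probes with at least 5 spots whose mean lay within 0.5 (log2) of the member's. With 2 arrays, no genes of like pattern were sought. The counting was tested on simulated data, with less noise than between spots at the signals of the dim members. That test therefore does not bear on their calls. The number of arrays limits all precision. There were 10 alternatives, among them limma's normexp with an offset of 50 on the median spot signal and local background intensities that the authors deposited. Python 3.11.15, numpy 2.4.6, pandas 2.3.3, matplotlib 3.10.9, R 4.3.3 and limma 3.58.1 were used.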

Additional observations from a re-analysis of the deposited data

How the results depend on the processing

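No paired analysis was possible because each diet has 1 array, and for the same reason no replicate could be left out. The counts of 4 higher and 3 lower member probes were the same with quantile normalization, median scaling, the 75th percentile of detected probes, cyclic loess, the deposited log2 values, no filter on dim probes, and outlier spots kept. When a probe had to be well above background on both arrays, 3 were higher and 3 lower, since Il1r1 was left out. With the normexp correction 2 were higher and 2 lower, and with a 2-fold threshold 2 were higher and 1 lower. The offset of 50 units in the normexp correction exceeds the signals of Il1a and Il1rap and the NSD signal of Il1r1. It shrinks the fold changes of these 3 genes by construction. Over all probes the normexp correction left 961 higher and 923 lower, in place of 3030 and 2639, a 2-fold threshold left 793 and 1039, and no filter on dim probes gave 6010 and 3757. The split of calls turned with the scaling, from 3030 higher and 2639 lower to 2341 and 3178 with cyclic loess. The median over member probes was 0.14 without a filter on dim probes, where Il1r1 enters, and between -0.093 and -0.035 otherwise. In the pathway lists 12 genes were higher and 2 lower. With a median taken over all probes of each gene 12 were higher and 1 lower, and with the normexp correction 8 were higher and 1 lower. Signals near 4.61 units on the NSD array were at the limit of detection, and Il1r1 there lay at the floor of the deposited values (2.32 on the log2 scale).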

Other observations

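The remaining marker lists showed other differences between the pools. Beside their counts, 9.85% of all named genes with a usable value were higher and 10.3% lower by at least 1.5-fold. B cell markers were all above 0, with 0 of 5 past 1.5-fold and a median log2 fold change of 0.40. The markers of mast cells and basophils, which carry the IL-33 receptor gene Il1rl1, had 0 of 6 past 1.5-fold, a median of -0.19 and a summed level of 3.90 with NSD and 2.80 with HSD. The normexp correction gave a median of 0.0086, so the direction was not kept. Cpa3 read 408 and 262 units and Mcpt8 442 and 276 units. Of 8 dendritic cell markers, 2 were higher and 2 lower by at least 1.5-fold, the median was -0.015, and Batf3 was among the lower ones (47.9 and 20.4 units, log2 fold change -1.12). Erythroid markers had 0 of 3 with a usable value past 1.5-fold and a median of -0.053. Among neutrophil markers the 1 past 1.5-fold was Mpo, an enzyme of primary granules, which read 3536 and 1723 units (log2 fold change -0.92).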
